A study of Mus musculus with 21 samples.

Results

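The mouse HOX genes of the 4 clusters *Hoxa*, *Hoxb*, *Hoxc* and *Hoxd* were followed in mesenchymal cells of the bone marrow (BM) niche during human acute myeloid leukemia (AML). Members were all entries of the expression table whose Ensembl identifier maps to a symbol made of Hoxa, Hoxb, Hoxc or Hoxd and a paralog number. Reported here are 36 of 26852 genes, and *Hoxb13* and *Hoxd12* were not analysed here. Of the 36, 21 reached a mean of 3.32 over all libraries, which is log2 of 10 normalized counts, and 15 did not.

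HOX genes encode homeodomain transcription factors that tell cells where they lie along the body axis and along the limb. Within a cluster, genes at the 3′ end (low paralog numbers) act in the head and neck and those at the 5′ end (high paralog numbers) in the lower trunk and the distal limb, and genes of the same number in different clusters are paralogs that partly replace each other. Mesenchymal cells of adult bone keep the HOX pattern of the region they came from, and the same genes, *Hoxa9* and *Hoxa10* above all, are active in blood progenitors and in many human AML.

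The 21 libraries came from Nes low mesenchymal cells, sorted by flow cytometry from the marrow of NSG mice and sequenced in bulk. The methods name the rear bones as the source of the marrow. These mice lack most of their own immune cells, so human cells can grow in them, and carried green fluorescent protein under a Nestin promoter. Mice were unengrafted (ctrl, 3 libraries) or received, unconditioned and at 8 to 12 weeks of age, the human AML cell lines HL60 or ML1, made to release sLP-mCherry, which crosses membranes and colours nearby cells red. At the early stage of leukemia, mesenchymal cells with the red label (early ch+, 6 libraries), near to leukemic cells, were sorted apart from those without it (early ch-, 6 libraries). For the late stage (late, 6 libraries) no split by the label is given. Each leukemic group held 3 HL60 and 3 ML1 libraries, and each line is 1 established culture. For the ML1 late libraries a treatment label reads as for ctrl, while their titles and time point place them in late, where they were kept. Nothing says that libraries came from separate mice, so p-values measure the spread between samples alone. The methods place both early fractions in the same marrow, but no label says which early ch+ and ch- libraries share a mouse.

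Values are the authors' regularized log2 levels, which pull weakly expressed genes toward their mean and are not corrected for gene length. Whole reads could not be recovered, and the methods give a typical yield for the series alone, so no library has a known depth of its own. Converted back from log2 and divided by 1000000, the normalized signal summed to 11.9 to 14.2 in ctrl, 12.3 to 14.7 in early ch-, 11.2 to 12.6 in early ch+ and 7.26 to 9.02 in late libraries. The rRNA gene *CT010467.1* alone held 29.7% to 34.2% of this sum in ctrl and 16.8% to 26.2% in late, and *Col1a1*, the main collagen of bone, 9.50% to 11.1% and 0.764% to 5.02%. How libraries are scaled therefore bears on every HOX comparison with late.

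The 8 markers of the sorted Nes low cells, led by *Cxcl12*, the niche chemokine, were expressed in all groups and summed to 15.45 to 16.06 (median 15.66) on the log2 scale in ctrl, 15.52 to 16.44 (median 16.15) in early ch-, 16.18 to 16.77 (median 16.50) in early ch+ and 16.75 to 17.03 (median 16.86) in late, so that they were higher in early ch+ and late than in ctrl without overlap. Against ctrl, *Lepr* rose from 12.60 to 14.57 in late and *Pdgfrb* from 11.003 to 12.999. *Nes* stood at 7.39 and 7.30, and *Pdgfra* was lower in late, at 11.79 and 11.41. Other cell types moved with the groups, although mouse and human blood cells had been depleted with magnetic beads before the sort and the remaining cells stained for CD45 and Ter119. The gene said to lead a list has the highest mean over all libraries, not in each group. The 14 blood cell markers, led by *Lyz2* and 7 of them under the floor, summed to 8.10 to 8.91 (median 8.70) on the log2 scale in ctrl, 10.36 to 11.39 (median 10.68) in early ch-, 9.995 to 11.18 (median 10.85) in early ch+ and 6.94 to 8.08 (median 7.67) in late. The 10 red cell markers, led by *Hbb-bs*, summed to 8.47 to 9.51 (median 8.89), 12.34 to 13.34 (median 12.93), 12.12 to 13.67 (median 13.07) and 6.85 to 7.44 (median 7.10) in the same order. Blood and red cell signal was thus higher in both early groups than in ctrl and late, without overlap. The 12 chondrocyte markers, led by *Col2a1*, summed to 16.54 to 17.48 (median 16.77) in ctrl, 15.68 to 16.70 (median 16.22) in early ch-, 14.12 to 15.36 (median 14.75) in early ch+ and 11.86 to 14.54 (median 13.12) in late. The 9 osteoblast markers, led by *Col1a1*, summed to 20.24 to 20.69 (median 20.39), 19.95 to 20.45 (median 20.24), 19.81 to 20.06 (median 19.88) and 15.96 to 18.89 (median 17.65). Cartilage signal was lower in early ch+ and late than in ctrl, and bone-forming signal was lower in late than in every other group, again without overlap. Endothelial markers, checked since a general protocol in the labels names CD31+ cells, were led by *Cdh5* and summed to 8.10 to 8.54 (median 8.30) in ctrl, 7.64 to 8.81 (median 8.45) in early ch-, 8.01 to 9.15 (median 8.81) in early ch+ and 7.88 to 8.70 (median 8.17) in late. Smooth muscle markers, led by *Mylk*, summed to 13.62 to 14.74 (median 14.08), 13.07 to 13.94 (median 13.50), 11.87 to 12.65 (median 12.17) and 12.39 to 13.20 (median 12.99) in ctrl, early ch-, early ch+ and late, and skeletal muscle markers, led by *Actn3*, to 7.55 to 7.75 (median 7.59), 7.66 to 8.87 (median 8.18), 7.73 to 9.34 (median 8.71) and 6.01 to 7.13 (median 6.29). In bulk samples, fewer cells of a type and less RNA per cell cannot be told apart.

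The clusters differed in how much of their length was expressed. On GRCm38, the *Hoxa* genes reported here lie on chromosome 6 from 52162417 to 52260880, on the minus strand, and all 10 of its genes reported here reached 3.32. Of the *Hoxc* cluster, on the plus strand of chromosome 15 from 102921103 to 103036852, 6 of 9 genes did. Of the *Hoxb* cluster, on the plus strand of chromosome 11 from 96194316 to 96368256, 3 of 9 analysed genes did, the neighbours *Hoxb2*, *Hoxb3* and *Hoxb4*. The *Hoxd* cluster, on the plus strand of chromosome 2 from 74668310 to 74765142, had 2 of 8 analysed genes above the floor, the neighbours *Hoxd8* and *Hoxd9*. Just inside the floor were *Hoxa13* (mean 3.52) and *Hoxa4* (3.83), and just outside were *Hoxc11* (3.04) and *Hoxd4* (1.98). No further one of the 36 genes reached 3.32 in any of the 7 groups of libraries alone, *Hoxc11* in ML1 early ch- coming nearest (3.30), while *Hoxa13* fell short of it in early ch- with both lines (3.19 and 3.19).

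By paralog number, expressed genes were found in groups 2 to 11 and 13, while *Hoxc12*, of group 12, stood at 0.81. Both genes of group 2 (*Hoxa2* and *Hoxb2*) were above the floor, and 3 of 4 in group 4 (*Hoxa4*, *Hoxb4* and *Hoxc4*) and group 9 (*Hoxa9*, *Hoxc9* and *Hoxd9*). In groups 3 (*Hoxa3* and *Hoxb3*), 5 (*Hoxa5* and *Hoxc5*), 6 (*Hoxa6* and *Hoxc6*), 8 (*Hoxc8* and *Hoxd8*) and 10 (*Hoxa10* and *Hoxc10*) it was 2 of 3. In groups 7, 11 and 13 the *Hoxa* member was the one above the floor: *Hoxa7* of 2, *Hoxa11* of 3 and *Hoxa13* of the 3 measured.

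To compare genes, log2 of the exon length in kb was subtracted from the mean level. Per kb, *Hoxc10* (6.48) and *Hoxa10* (6.12), the paralogs that set the lumbar spine and the upper hind limb, led the family, followed by *Hoxa9* (5.23), *Hoxc6* (5.08), *Hoxa7* (5.07) and *Hoxa6* (5.06). The lead of *Hoxc10* over *Hoxa10* was smaller than the SD of *Hoxc10* between libraries (0.54), and with the longest transcript as length *Hoxa10* came to 6.47. Among the 21 genes above the floor, the lowest per kb were *Hoxa13* (2.22), *Hoxb4* (2.77) and *Hoxa4* (3.16). Among the tested genes the median was 4.68 per kb, so 8 of the 21 HOX genes lay above it. *Hoxc10* stood at the 82.5th percentile and *Hoxa13* at the 9.16th.

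Summed per kb on the linear scale, *Hoxa* genes gave 49.6% ± 6.35 (SD) of the signal of the 21 genes in ctrl, 46.9% ± 7.82 in early ch-, 49.2% ± 4.99 in early ch+ and 51.9% ± 2.26 in late. *Hoxc* genes gave 35.7% ± 2.23, 38.0% ± 8.45, 35.1% ± 5.59 and 36.2% ± 2.03 in the same order. *Hoxb* genes stayed between a mean of 6.02% (late) and 7.77% (early ch-), and *Hoxd* genes between 5.87% (late) and 9.32% (early ch+). The ranges of libraries overlapped between all 4 groups for each of the 4 clusters, and the balance of the clusters was not tested.

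**Figure D1:**
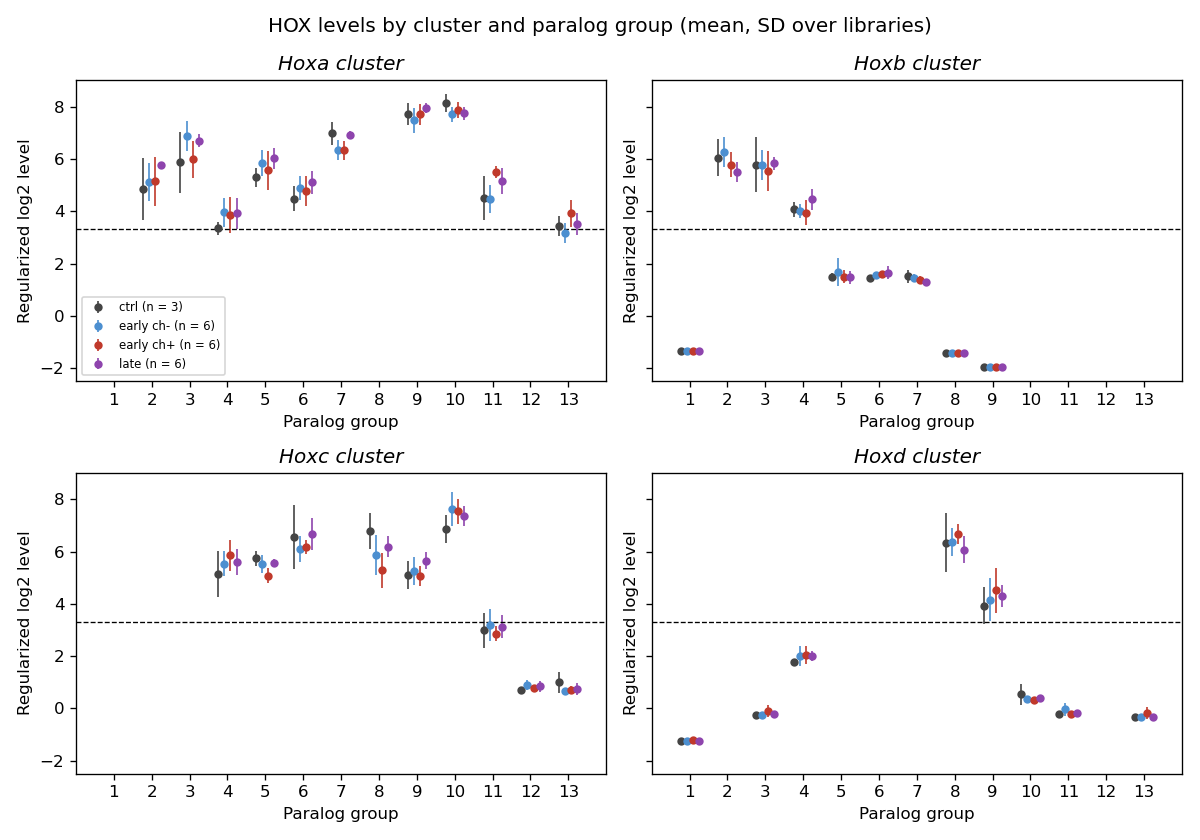
Regularized log2 level (y axis) of 36 HOX genes against paralog group (x axis), 1 panel per cluster. Points are means over the libraries of ctrl, early ch-, early ch+ and late, bars are SD, and the dashed line marks the floor of 3.32: *Hoxa* lies above it in groups 2 to 13 but for *Hoxa13* in early ch- (mean 3.19), *Hoxb* in groups 2 to 4, *Hoxc* in groups 4 to 10 and *Hoxd* in groups 8 and 9.

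Levels are given as mean ± SD, with 3 libraries in ctrl and 3 for each line and stage, HL60 before ML1. Near the 3′ end of *Hoxa*, *Hoxa2*, the selector of the second pharyngeal arch, averaged 4.85 ± 1.19 in ctrl, 5.27 ± 1.10 and 4.99 ± 0.15 in early ch-, 5.50 ± 0.85 and 4.81 ± 1.07 in early ch+, and 5.77 ± 0.18 and 5.77 ± 0.038 in late. The level of *Hoxa3*, needed for thymus and parathyroid, was 5.87 ± 1.16 in ctrl, 7.08 ± 0.80 and 6.70 ± 0.27 in early ch-, 5.96 ± 0.66 and 6.02 ± 0.91 in early ch+, and 6.58 ± 0.26 and 6.82 ± 0.24 in late. *Hoxa2* and *Hoxa3* spread widely in ctrl (SD above 1). The middle of the cluster holds genes of the neck and upper trunk. *Hoxa4*, a gene of the cervical vertebrae, averaged 3.35 ± 0.25 in ctrl, 4.32 ± 0.46 and 3.59 ± 0.44 in early ch-, 4.14 ± 0.79 and 3.56 ± 0.59 in early ch+, and 4.26 ± 0.46 and 3.57 ± 0.58 in late. For *Hoxa5*, which acts in the lung and at the border of neck and thorax, the means were 5.30 ± 0.35 in ctrl, 5.85 ± 0.74 and 5.86 ± 0.23 in early ch-, 5.72 ± 0.996 and 5.40 ± 0.61 in early ch+, and 6.34 ± 0.24 and 5.71 ± 0.16 in late. The level of *Hoxa6*, a gene of the upper thorax, was 4.49 ± 0.49 in ctrl, 4.86 ± 0.62 and 4.92 ± 0.39 in early ch-, 4.94 ± 0.64 and 4.61 ± 0.61 in early ch+, and 4.89 ± 0.33 and 5.33 ± 0.48 in late. For these 3 genes the ctrl mean was the lowest of the 4 stages, though none of the differences passed the test.

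*Hoxa7*, a gene of the thoracic skeleton, averaged 6.98 ± 0.44 in ctrl, 6.49 ± 0.52 and 6.20 ± 0.17 in early ch-, 6.46 ± 0.27 and 6.22 ± 0.46 in early ch+, and 6.995 ± 0.11 and 6.84 ± 0.12 in late. For *Hoxa9*, a driver of blood progenitor growth and of AML, the means were 7.73 ± 0.43 in ctrl, 7.32 ± 0.58 and 7.64 ± 0.41 in early ch-, 7.62 ± 0.16 and 7.81 ± 0.60 in early ch+, and 7.96 ± 0.27 and 7.91 ± 0.12 in late. The 5′ end of *Hoxa* belongs to the limb and the lower trunk. The level of *Hoxa10*, which keeps the lumbar vertebrae free of ribs, was 8.16 ± 0.34 in ctrl, 7.61 ± 0.35 and 7.81 ± 0.26 in early ch-, 7.83 ± 0.47 and 7.90 ± 0.11 in early ch+, and 7.78 ± 0.28 and 7.73 ± 0.28 in late. *Hoxa11*, which shapes the forearm and lower leg, averaged 4.51 ± 0.84 in ctrl, 4.27 ± 0.27 and 4.68 ± 0.71 in early ch-, 5.58 ± 0.32 and 5.42 ± 0.11 in early ch+, and 5.27 ± 0.26 and 5.02 ± 0.70 in late. For *Hoxa13*, which shapes hand and foot, the means were 3.44 ± 0.40 in ctrl, 3.19 ± 0.34 and 3.19 ± 0.50 in early ch-, 3.98 ± 0.42 and 3.86 ± 0.68 in early ch+, and 3.43 ± 0.58 and 3.59 ± 0.24 in late. With the lines pooled, *Hoxa7* and *Hoxa10* had their highest mean of the 4 stages in ctrl, *Hoxa9* in late, and *Hoxa11* and *Hoxa13* in early ch+.

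*Hoxa10* had the highest mean of its cluster (7.83). Its 3 ctrl libraries stood at 7.77, 8.27 and 8.43, and its lowest, median and highest values were 7.24, 7.76 and 8.04 in early ch-, 7.30, 7.96 and 8.12 in early ch+ and 7.42, 7.78 and 8.06 in late. All 4 groups overlapped, with the highest 2 ctrl libraries above every leukemic library.

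In *Hoxb*, *Hoxb2*, which acts in the hindbrain and the facial nerve, averaged 6.05 ± 0.71 in ctrl, 5.95 ± 0.13 and 6.57 ± 0.70 in early ch-, 5.59 ± 0.08 and 5.99 ± 0.70 in early ch+, and 5.67 ± 0.35 and 5.36 ± 0.41 in late. For *Hoxb3*, its hindbrain neighbour, the means were 5.78 ± 1.05 in ctrl, 5.38 ± 0.59 and 6.17 ± 0.24 in early ch-, 5.52 ± 1.08 and 5.57 ± 0.54 in early ch+, and 5.93 ± 0.10 and 5.73 ± 0.33 in late. The level of *Hoxb4*, a factor that expands blood stem cells, was 4.08 ± 0.29 in ctrl, 3.80 ± 0.20 and 4.23 ± 0.14 in early ch-, 4.02 ± 0.58 and 3.85 ± 0.46 in early ch+, and 4.53 ± 0.50 and 4.39 ± 0.36 in late. *Hoxb2* is the gene with the highest mean of the cluster (5.88). Its ctrl libraries stood at 5.28, 6.23 and 6.66, and its lowest, median and highest values were 5.76, 6.01 and 6.997 in early ch-, 5.32, 5.64 and 6.71 in early ch+ and 4.98, 5.53 and 5.98 in late. The groups overlapped, with ML1 early ch- holding the 2 highest libraries and ML1 late the lowest. Of the 6 genes under the floor, *Hoxb5* (1.54), *Hoxb6* (1.57) and *Hoxb7* (1.40) lay between 1 and 2, and *Hoxb1* (−1.35), *Hoxb8* (−1.42) and *Hoxb9* (−1.97) lay below 0.

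In *Hoxc*, which starts at paralog 4, *Hoxc4*, a gene of the neck and upper thorax, averaged 5.14 ± 0.87 in ctrl, 5.45 ± 0.19 and 5.62 ± 0.71 in early ch-, 6.11 ± 0.41 and 5.60 ± 0.70 in early ch+, and 5.32 ± 0.52 and 5.90 ± 0.27 in late. For *Hoxc5*, its neighbour with a like domain, the means were 5.74 ± 0.29 in ctrl, 5.70 ± 0.39 and 5.36 ± 0.23 in early ch-, 5.04 ± 0.18 and 5.11 ± 0.42 in early ch+, and 5.62 ± 0.20 and 5.52 ± 0.12 in late. The level of *Hoxc6*, a gene of the upper thorax, was 6.54 ± 1.22 in ctrl, 6.34 ± 0.48 and 5.87 ± 0.47 in early ch-, 5.99 ± 0.24 and 6.37 ± 0.12 in early ch+, and 7.03 ± 0.59 and 6.30 ± 0.38 in late. *Hoxc4* and *Hoxc6* overlapped between all 4 stages. *Hoxc5* in early ch+ (4.66, 5.05 and 5.50 as lowest, median and highest) lay below ctrl (5.56, 5.58 and 6.08) without overlap. Groups without overlap were found for 2 of the 21 tested HOX genes in this comparison, beside 8.06% of all tested genes. The *Hoxc5* difference of −0.67 did not pass by limma (adjusted p = 0.237) unless the variance was not tied to the mean level. *Hoxc8*, which sets the identity of thoracic vertebrae and motor neurons, averaged 6.78 ± 0.68 in ctrl, 6.29 ± 0.62 and 5.45 ± 0.71 in early ch-, 5.63 ± 0.58 and 4.92 ± 0.66 in early ch+, and 6.33 ± 0.58 and 6.04 ± 0.11 in late. For *Hoxc9*, a thoracic gene next to it, the means were 5.10 ± 0.53 in ctrl, 5.30 ± 0.71 and 5.20 ± 0.50 in early ch-, 5.13 ± 0.17 and 5.02 ± 0.57 in early ch+, and 5.70 ± 0.45 and 5.61 ± 0.24 in late. The level of *Hoxc10*, active in the hind limb and the lumbar spinal cord, was 6.87 ± 0.53 in ctrl, 7.70 ± 0.52 and 7.53 ± 0.86 in early ch-, 7.66 ± 0.63 and 7.41 ± 0.32 in early ch+, and 7.41 ± 0.43 and 7.29 ± 0.43 in late. With the lines pooled, *Hoxc8* had its highest mean in ctrl and its lowest in early ch+, while *Hoxc10* had its lowest mean in ctrl.

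*Hoxc10* led its cluster with a mean of 7.41. Its ctrl libraries stood at 6.39, 6.79 and 7.44, and its lowest, median and highest values were 6.76, 7.54 and 8.47 in early ch-, 7.15, 7.36 and 8.36 in early ch+ and 6.81, 7.35 and 7.89 in late. The groups overlapped, and the highest values came from single libraries of ML1 early ch-, HL60 early ch+ and HL60 early ch-. *Hoxc11* (3.04), *Hoxc12* (0.81) and *Hoxc13* (0.75), the 5′ end of the cluster, lay under the floor.

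In *Hoxd*, *Hoxd8*, a gene of the lower trunk, averaged 6.33 ± 1.14 in ctrl, 6.42 ± 0.17 and 6.30 ± 0.83 in early ch-, 6.48 ± 0.17 and 6.86 ± 0.45 in early ch+, and 6.27 ± 0.70 and 5.87 ± 0.23 in late. For *Hoxd9*, which acts with it in the lumbosacral region and the upper limb, the means were 3.93 ± 0.72 in ctrl, 4.58 ± 0.95 and 3.72 ± 0.49 in early ch-, 4.35 ± 0.68 and 4.67 ± 1.15 in early ch+, and 4.38 ± 0.54 and 4.22 ± 0.35 in late. *Hoxd8* led its cluster with a mean of 6.36. Its ctrl libraries stood at 5.04, 6.79 and 7.17, and its lowest, median and highest values were 5.55, 6.33 and 7.18 in early ch-, 6.29, 6.58 and 7.27 in early ch+ and 5.45, 5.998 and 6.70 in late. The ctrl libraries alone spanned nearly the whole range of the leukemic ones, and ctrl replicate 374 was the lowest of all 21. *Hoxd4* (1.98), *Hoxd10* (0.38), *Hoxd11* (−0.15), *Hoxd3* (−0.20), *Hoxd13* (−0.29) and *Hoxd1* (−1.24) lay under the floor, so that expression in the cluster was limited to a pair of neighbours. *Hoxd3* and *Hoxd4* share exon bases on the same strand. Exons of another same-strand gene, *Gm28230*, cover 53.1% and 39.1% of their exon length, so their low values are uncertain in how reads were split. *Hoxc5* and *Hoxc10* also share exon bases, 5.37% and 8.70% of their length, and exons of other same-strand genes cover 15.0% of *Hoxa2*, 10.8% of *Hoxd11*, 8.01% of *Hoxa3*, 5.73% of *Hoxd10* and 1.52% of *Hoxa9*, to which the same doubt applies.

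A border between genes above and under the floor in *Hoxd* runs between *Hoxd9* and *Hoxd10*. Another, not shown, lies on the 3′ side of the pair, between *Hoxd8* and the overlapping *Hoxd3* and *Hoxd4*. The DNA upstream of the pair on each side of the border between *Hoxd9* and *Hoxd10* is shown to give the sequence there. RefSeq promoter windows (GRCm38.p6) matched 22 of 38 HOX genes. The stretches below are 200 bases on the plus strand of chromosome 2, read 5′ to 3′, that end 15 to 84 bases before the annotated gene start, and capitals mark CpG. None lies in an annotated exon, except that of *Hoxd9*, which meets an exon of *Gm28793* on the opposite strand.
Hoxd8, chr2:74704365-74704564: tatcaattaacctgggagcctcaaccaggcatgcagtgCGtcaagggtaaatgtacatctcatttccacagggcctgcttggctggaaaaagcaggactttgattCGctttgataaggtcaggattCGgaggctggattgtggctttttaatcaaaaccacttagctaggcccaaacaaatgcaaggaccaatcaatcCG
Hoxd9, chr2:74697513-74697712: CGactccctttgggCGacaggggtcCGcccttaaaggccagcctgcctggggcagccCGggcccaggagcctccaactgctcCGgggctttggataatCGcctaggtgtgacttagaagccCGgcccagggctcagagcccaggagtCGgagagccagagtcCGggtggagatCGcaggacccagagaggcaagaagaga
Hoxd10, chr2:74691641-74691840: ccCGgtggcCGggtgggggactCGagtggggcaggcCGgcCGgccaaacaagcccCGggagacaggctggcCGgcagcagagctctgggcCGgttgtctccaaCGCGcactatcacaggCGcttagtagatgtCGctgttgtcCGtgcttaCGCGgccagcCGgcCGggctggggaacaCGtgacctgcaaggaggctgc
Hoxd11, chr2:74679308-74679507: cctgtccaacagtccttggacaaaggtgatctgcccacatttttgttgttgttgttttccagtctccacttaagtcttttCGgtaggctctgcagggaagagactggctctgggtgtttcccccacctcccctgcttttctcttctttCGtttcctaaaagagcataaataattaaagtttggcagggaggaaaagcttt
Of the pair above the floor, *Hoxd8* has 4 and *Hoxd9* 10 CpG in its stretch, and of the pair under it *Hoxd10* has 18 and *Hoxd11* 2, with capitals counted over the stretches shown. Over the whole windows the numbers were 6, 20 and 22 for *Hoxd8*, *Hoxd9* and *Hoxd10*. RefSeq holds 2 windows for *Hoxd11*, and the one shown, nearer to the annotated gene start, has 4 CpG in all, while the other has 25. Over all windows, the median was 14.5 CpG in the 24 windows of HOX genes against 7 in all 32841 windows, and 14.5 in the 14 windows of HOX genes above the floor against 16.5 in the other 10. TGATTNAT, a composite letter string of HOX proteins paired with a cofactor, was found on either strand in 2 HOX windows, that of *Hoxa2* and the one of *Hoxd11* that is not shown, and in 3.22% of all windows. TATAAA was found on either strand in 4 HOX windows (*Hoxa10*, *Hoxb8*, *Hoxd4* and *Hoxd13*) and in 13.6% of all windows. These are descriptions of letters, and whether the strings are used was not tested.

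Late cells were compared with ctrl to follow advanced leukemia. Of the 21 HOX genes reported here, 0 were deregulated (adjusted p under 0.1 in limma over 12976 genes) against 21.5% of all tested genes. An unadjusted p under 0.05 was found for 0 of the 21 against 27.6% of all tested genes. The furthest were *Hoxa2* at 0.92 (95% interval −0.081 to 1.91, adjusted p = 0.226) and *Hoxa3* at 0.83 (−0.019 to 1.69, adjusted p = 0.193). Single controls move both: *Hoxa2* came to 1.58 without ctrl replicate 374 (passed) and 0.42 without ctrl replicate 375, and *Hoxa3* to 1.48 without ctrl replicate 373 (passed) and 0.37 without ctrl replicate 375, so that the count was 1 without replicate 373 or 374. The 21.5% holds for the fit of all libraries, so it is no background for these 2 counts. Of the 21 genes, 15 had a higher mean in late, with a median log2 fold change of 0.37 against 0.019 over all tested genes. Rescaling each library to the mean summed signal moved the median of all genes to 0.71 and that of the HOX genes to 1.06. Then 15 HOX genes passed the test, all higher in late. The 21.5% of all tested genes holds before rescaling, so it is no background for this count. Of all genes that passed, 47.3% before and 93.8% after rescaling were higher in late. Over the 21 genes, 95% intervals reached from −1.46 (*Hoxc8*) to 1.91 (*Hoxa2*). In the same libraries markers of chondrocytes (12 of 12), osteoblasts (7 of 9), smooth muscle (5 of 8), red cells (4 of 10), blood cells (2 of 7) and skeletal muscle (2 of 6) were lower, and those of Nes low cells were higher in 6 of 8 and lower in 1. Their part in the HOX levels was not tested.

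Early ch+ cells were compared with ctrl to set cells next to the first leukemic cells against those of unengrafted mice. Of the 21 HOX genes, 1 was deregulated (4.76%) against 6.17% of all tested genes. This was *Hoxc8*, a thoracic gene from the middle of its cluster. Its ctrl libraries stood at 6.07, 6.85 and 7.42, those of HL60 early ch+ at 5.07, 5.59 and 6.22 and those of ML1 early ch+ at 4.16, 5.29 and 5.30. The ML1 libraries were all below ctrl, and 1 HL60 library overlapped with it. The difference was −1.50 (SE 0.42, limma, Benjamini-Hochberg adjusted p = 0.0370). The difference (adjusted p) was −1.18 (0.217) without ctrl replicate 373 and −1.47 (0.122) without ctrl replicate 374, and over the other alternatives the adjusted p ran from 0.0200 to 0.192. *Hoxa11* had the highest difference in the other direction over all libraries, 0.995 (95% interval 0.23 to 1.76), but it did not pass by limma (adjusted p = 0.151). It came to 0.55 without ctrl replicate 373 and 1.38 without ctrl replicate 375 (passed). All 6 of its early ch+ libraries lay above ctrl. Groups without overlap were found for 2 of the 21 HOX genes, *Hoxa11* and *Hoxc5*, beside 8.06% of all tested genes. Of all genes that passed, 55.4% before and 66.7% after rescaling were higher. The median over the 21 genes was 0.12 against 0.011 over all tested genes, with 11 higher. Blood cell markers were higher in 7 of 7 tested genes, red cell markers in 9 of 10, skeletal muscle markers in 5 of 6 and Nes low cell markers in 4 of 8. Chondrocyte markers were lower in 11 of 12 and smooth muscle markers in 6 of 8. *Ptprc*, *Elane* and *Mb* averaged 2.56, 2.74 and 2.34 in ctrl and 4.79, 5.74 and 4.85 in early ch+. In ctrl and late they lay under the floor. They were thus tested only through the early groups, and the filter favours the blood and skeletal muscle counts. The part of these cell types in the level of *Hoxc8* was not tested.

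Early ch- cells share the marrow with the leukemia but carry no label. None of the 21 HOX genes was deregulated against ctrl by limma, beside 1.92% of all tested genes. An unadjusted p under 0.05 was found for 4 of the 21, beside 11.9% of all tested genes. These were *Hoxa3* (1.02), *Hoxc10* (0.74), *Hoxc8* (−0.91) and *Hoxa7* (−0.63), as log2 fold changes. Single controls move these: *Hoxa3* came to 1.67 without ctrl replicate 373 (passed) and 0.56 without ctrl replicate 375, *Hoxc8* to −0.59 without ctrl replicate 373 and *Hoxa7* to −0.39 without ctrl replicate 375. The median over the 21 genes was 0.029 against 0.0098 over all genes, and rescaling turned these to −0.045 and −0.065. Of all genes that passed, 59.0% before and 41.9% after rescaling were higher. Blood cell markers were higher in 6 of 7 tested genes, red cell markers in 8 of 10, skeletal muscle markers in 1 of 6 and osteoblast markers in 1 of 9. *Ptprc* and *Elane* averaged 2.56 and 2.74 in ctrl and 4.21 and 5.60 in early ch-. In ctrl and late they lay under the floor, so they were tested only through the early groups, and the filter favours the blood cell count. The part of these cell types was not tested.

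The labelled and unlabelled cells of the early stage were set against one another, with ctrl entering through the variance and the filter alone. Here 1 of the 21 HOX genes was deregulated (4.76%) against 6.26% of all tested genes. It was *Hoxa11*, the gene of forearm and lower leg. Its values in early ch+ were 5.39, 5.40 and 5.95 with HL60 and 5.35, 5.36 and 5.55 with ML1. In early ch- they were 4.07, 4.16 and 4.58 with HL60 and 4.17, 4.39 and 5.49 with ML1. The early ch+ libraries lay above 5 of the 6 early ch- libraries, and ML1 early ch- replicate 546 lay among them. The difference was 1.02 (SE 0.30, limma, Benjamini-Hochberg adjusted p = 0.0481). It depends on single libraries: the difference (adjusted p) was 0.94 (0.111) without HL60 early ch- replicate 527, 0.96 (0.110) without HL60 early ch- replicate 528, 0.96 (0.101) without ML1 early ch- replicate 543 and 0.93 (0.111) without HL60 early ch+ replicate 523, and over the other alternatives the adjusted p ran from 0.0130 to 0.584. In its neighbour *Hoxa13* the difference was 0.74 (adjusted p = 0.139), which came to 0.85 without ML1 early ch- replicate 544 (passed) and 0.89 without ML1 early ch+ replicate 538 (passed), and passed after quantile normalization or rescaling. *Hoxa3* (−0.90) passed as well, its difference unchanged, without ctrl replicate 373. Of the 21 genes, 9 were higher in early ch+, with a median of −0.081 against −0.019 over all tested genes, and rescaling turned these medians to 0.07 and 0.13. Of all genes that passed, 57.1% before and 78.6% after rescaling were higher in early ch+. An antisense RNA, *Hoxa11os*, overlaps the exons of *Hoxa11*. It lay under the floor (mean 2.45), and since the sources differ on whether strand was kept, its reads and those of *Hoxa11* may not be apart. Chondrocyte markers were lower in early ch+ (11 of 12) and so were those of smooth muscle (6 of 8) and osteoblasts (1 of 9), 1 of 8 Nes low cell markers was higher, and none of the 7 tested blood cell markers differed by limma. Their part in the level of *Hoxa11* was not tested.

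Late and early ch+ cells were compared to follow cells exposed to leukemia over time. A pair of HOX genes, 2 of 21 or 9.52%, was deregulated against 19.7% of all tested genes, *Hoxc8* and *Hoxa7*, both trunk genes and both higher in late. *Hoxc8* stood at 5.73, 6.37 and 6.89 in HL60 late and at 5.95, 5.998 and 6.16 in ML1 late, against 4.16, 5.30 and 6.22 as the lowest, median and highest value in early ch+. The groups overlapped, and the difference was 0.91 (SE 0.34, limma, Benjamini-Hochberg adjusted p = 0.0758). *Hoxa7* stood at 6.89, 6.99 and 7.11 in HL60 late and at 6.73, 6.81 and 6.98 in ML1 late. In early ch+ it stood at 6.25, 6.37 and 6.77 with HL60 and at 5.80, 6.15 and 6.71 with ML1. The late libraries lay close together, and 1 HL60 early ch+ library reached into their range. The difference was 0.58 (SE 0.23, limma, Benjamini-Hochberg adjusted p = 0.0875). The ctrl libraries of *Hoxa7* stood at 6.61, 6.86 and 7.47, and for both genes no late library lay above the highest ctrl library. The calls are narrow. For *Hoxc8* the difference (adjusted p) was 0.87 (0.122) without HL60 early ch+ replicate 525, 0.91 (0.102) without ML1 early ch+ replicate 538, 0.68 (0.207) without ML1 early ch+ replicate 541, 0.77 (0.174) without HL60 late replicate 397, 0.87 (0.124) without HL60 late replicate 398 and 0.91 (0.111) without ML1 late replicate 581. For *Hoxa7* it was 0.58 (0.113) without HL60 early ch+ replicate 523, 0.56 (0.131) without HL60 early ch+ replicate 525, 0.54 (0.147) without ML1 early ch+ replicate 538, 0.47 (0.196) without ML1 early ch+ replicate 539, 0.56 (0.136) without HL60 late replicate 397, 0.54 (0.158) without HL60 late replicate 398, 0.58 (0.120) without HL60 late replicate 399, 0.57 (0.144) without ML1 late replicate 581, 0.60 (0.114) without ML1 late replicate 582 and 0.62 (0.104) without ML1 late replicate 583. Over the other alternatives the adjusted p ran from 0.000694 to 0.459 for *Hoxc8* and from 0.000165 to 0.468 for *Hoxa7*. The median over the 21 genes was 0.29 against 0.018 over all tested genes, with 13 higher in late. After rescaling it was 0.91 against 0.63, and 14 HOX genes passed, all higher. The 19.7% of all tested genes holds before rescaling, so it is no background for this count. Of all genes that passed, 44.6% before and 93.5% after rescaling were higher. *Hoxb4* (0.52) came to 0.67 without HL60 early ch+ replicate 524 (passed). The exons of *Hoxa7* overlap those of *Hoxaas3* on the opposite strand. Markers of blood cells (7 of 7), red cells (9 of 10), osteoblasts (7 of 9) and skeletal muscle (5 of 6) were lower in late. So were 3 of 6 endothelial and 2 of 12 chondrocyte markers, but the median over the 12 chondrocyte markers was 0.29. Those of smooth muscle were higher (5 of 8), and those of Nes low cells were higher in 4 of 8 and lower in 1. *Ptprc*, *Elane*, *Klf1* and *Mb* averaged 2.43, 2.63, 2.90 and 2.23 in late. In ctrl and late they lay under the floor. They were thus tested only through the early groups, and the filter favours the blood, red cell and skeletal muscle counts. The part of these cell types was not tested.

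**Figure D2:**
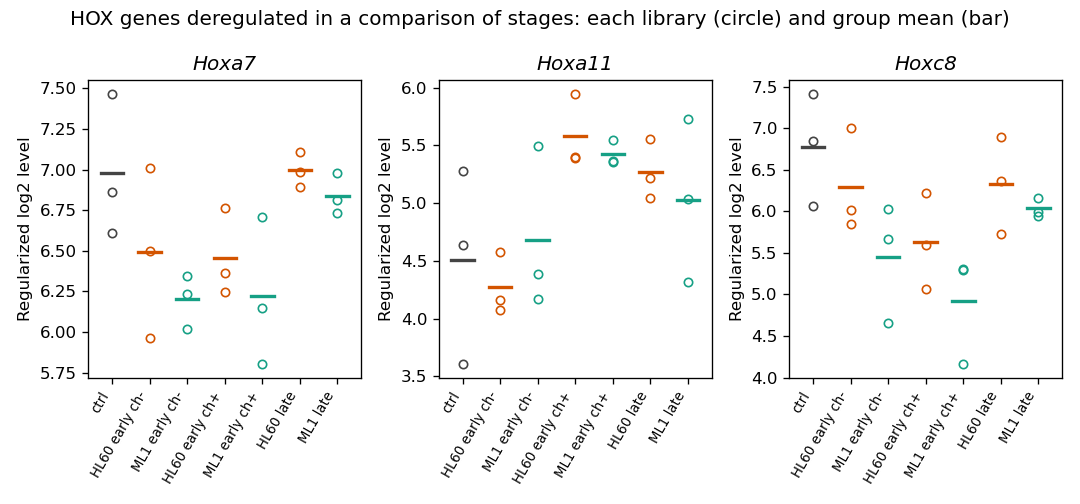
Regularized log2 level (y axis) of *Hoxa7*, *Hoxa11* and *Hoxc8*, each deregulated between stages, in each of the 21 libraries (circles), by group (x axis), with group means as bars, HL60 in orange, ML1 in green and ctrl in grey. *Hoxc8* is lowest in ML1 early ch+ (mean 4.92), *Hoxa11* is high in early ch+, and *Hoxa7* is low in both early groups.

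With the lines apart, none of the 21 HOX genes differed from ctrl by limma in HL60 late (13.7% of all tested genes) or ML1 late (22.0%). An unadjusted p under 0.05 was found for 2 and 0 of them, beside 21.3% and 28.2% of all tested genes. The 2 in HL60 late were *Hoxa5* at 1.04 (95% interval 0.12 to 1.95, adjusted p = 0.161 by limma) and *Hoxa4* at 0.91 (0.032 to 1.79, adjusted p = 0.210). Both lay above ctrl without overlap, and the share of all tested genes that did so in HL60 late was not computed. With the lines pooled, 0 of the 21 HOX genes and 19.1% of all tested genes had no overlap between late and ctrl. Single controls move other genes. In HL60 late, *Hoxa2* (0.91) came to 1.58 without ctrl replicate 374 (passed) and 0.42 without ctrl replicate 375. *Hoxa3* (0.71) came to 1.36 without ctrl replicate 373 (passed) and 0.25 without ctrl replicate 375. In ML1 late, *Hoxa2* (0.92) came to 1.58 without ctrl replicate 374 (passed) and 0.42 without ctrl replicate 375, *Hoxa3* (0.96) to 1.61 without ctrl replicate 373 (passed) and 0.49 without ctrl replicate 375, and *Hoxd8* (−0.46) to −0.24 without ctrl replicate 373, −1.11 without ctrl replicate 374 (passed) and −0.046 without ctrl replicate 375. The counts were thus 1 in each line without replicate 373, and 1 with HL60 and 2 with ML1 without replicate 374. The 13.7% and 22.0% hold for the fit of all libraries, so they are no background for these counts. ML1 early ch+ differed from ctrl in 1 (6.69% of all genes), *Hoxc8*, by −1.86 (SE 0.46, limma, Benjamini-Hochberg adjusted p = 0.0129). Leaving out any 1 library kept this call, with an adjusted p of at most 0.0968. HL60 early ch+ differed in none of the 21 (5.33% of all genes), with *Hoxc8* at −1.15 (95% interval −2.08 to −0.21). There, 3 HOX genes had an unadjusted p under 0.05, beside 15.6% of all genes. Neither HL60 early ch- (1.57% of all genes) nor ML1 early ch- (2.34%) differed from ctrl in any of the 21 by limma. An unadjusted p under 0.05 was found for 3 and 2 of them, beside 10.7% and 12.7% of all genes. With HL60, *Hoxa3* (1.21) came to 1.86 without ctrl replicate 373 (passed), 0.75 without ctrl replicate 375 and 0.76 without HL60 early ch- replicate 529.

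Rescaling to the mean summed signal again moved these comparisons. Against ctrl the median of all tested genes came to 0.58 in HL60 late and 0.84 in ML1 late, and that of the HOX genes to 0.98 and 1.04. Of the HOX genes 11 and 14 passed, all higher. The 13.7% and 22.0% of all tested genes hold before rescaling, so they are no background for these counts. In HL60 early ch+ the median of all genes came to 0.12 and that of the HOX genes to 0.20, and in ML1 early ch- to −0.11 and 0.0043, with 0 HOX genes passing by limma. The share of higher genes among all that passed, before and after rescaling, was 47.1% and 93.1% in HL60 late, 45.0% and 93.1% in ML1 late, 53.9% and 70.3% in HL60 early ch+ and 60.5% and 32.3% in ML1 early ch-.

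The lines were also compared directly. None of the 21 HOX genes differed between HL60 and ML1 by limma in late (4.09% of all genes), early ch+ (0.0154%) or early ch- (0.0539%). In any of these 0 of the 21 had an unadjusted p under 0.05, beside 10.9%, 7.61% and 6.82% of all genes. The differences of means, HL60 minus ML1, ran from −0.58 (*Hoxc4*) to 0.73 (*Hoxc6*) in late, from −0.39 (*Hoxb2*) to 0.71 (*Hoxc8*) in early ch+ and from −0.79 (*Hoxb3*) to 0.86 (*Hoxd9*) in early ch-. Single libraries move these: *Hoxc4* came to −0.36 without HL60 late replicate 398, *Hoxb2* to −0.027 without ML1 early ch+ replicate 538 and −0.72 without ML1 early ch+ replicate 541, *Hoxc8* to 0.41 without HL60 early ch+ replicate 523 and 0.33 without ML1 early ch+ replicate 541, and *Hoxd9* to 0.35 without HL60 early ch- replicate 528. For *Hoxc8* in early ch+ the 95% interval was −0.23 to 1.65, so the call in ML1 is not shown to differ from HL60. With 3 libraries a side, standard errors were 0.27 to 0.56. After rescaling, the median of all genes, HL60 minus ML1, was −0.24 in late and 0.10 in early ch-, and that of the HOX genes −0.11 and 0.21. Of all genes that passed, 77.2% and 37.0% were higher in HL60 late before and after rescaling, and 71.4% and 85.7% of 7 in HL60 early ch-. Whether the step from early ch- to early ch+ differed between the lines was tested as an interaction. None of the 21 HOX genes passed it by limma (0.00771% of all genes), and 0 had an unadjusted p under 0.05, beside 6.4% of all genes.

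HOX proteins bind DNA with TALE homeodomain cofactors, among them the MEIS and PREP (*Pknox*) families. Of 8 such genes in the list used here, 7 were tested. Against ctrl, 2 were higher in late, beside 10.2% of all tested genes. These were *Meis2* by 0.95 (SE 0.33, limma, adjusted p = 0.0457) and *Pknox2* by 0.94 (SE 0.31, adjusted p = 0.0355). By limma 0 of the 7 passed in early ch+ against ctrl, early ch- against ctrl or between the early groups (6.17%, 1.92% and 6.26% of all tested genes). An unadjusted p under 0.05 was found for 2, 0 and 0 of them, beside 16.8%, 11.9% and 15.4% of all tested genes. *Meis2* came to 0.61 without ctrl replicate 373, 0.77 without ctrl replicate 374 and 1.46 without ctrl replicate 375, and only the last of these kept the call. *Pknox2* lost its call at 0.67 without ctrl replicate 374. From early ch+ to late, 1 was higher, beside 8.79% of all tested genes, *Pknox1* at 0.59, a call lost at 0.53 without HL60 early ch+ replicate 523, 0.51 without ML1 early ch+ replicate 541, 0.54 without HL60 late replicate 397, 0.50 without ML1 late replicate 581 and 0.55 without ML1 late replicate 583.

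Polycomb complexes keep HOX genes silent. Of 27 tested members, 3 were higher in late than in ctrl, beside 10.2% of all tested genes: the histone methyltransferases *Ezh1* by 0.90 (SE 0.20, adjusted p = 0.00168) and *Ezh2* by 0.91 (SE 0.31, adjusted p = 0.0423), and *Pcgf5* by 0.97 (SE 0.39, adjusted p = 0.0909). *Ezh1* kept its call without any 1 library, while *Ezh2* lost it at 0.56 without ctrl replicate 374, and *Pcgf5* at 1.10 without ctrl replicate 373, 0.49 without ctrl replicate 375, 0.97 without HL60 early ch- replicate 527, 0.97 without HL60 late replicate 397, 0.92 without HL60 late replicate 398, 0.94 without HL60 late replicate 399, 1.003 without ML1 late replicate 581 and 0.91 without ML1 late replicate 582. The median over the list was 0.14 against 0.019 over all tested genes. By limma 0 of the 27 passed in early ch+ against ctrl, early ch- against ctrl or between the early groups, beside 6.17%, 1.92% and 6.26% of all tested genes. An unadjusted p under 0.05 was found for 1, 2 and 2 of them, beside 16.8%, 11.9% and 15.4% of all tested genes. From early ch+ to late, 4 were higher, beside 8.79% of all tested genes, among them *Pcgf6* (0.76) and *Aebp2* (0.58), which kept their calls without any 1 library. *Pcgf2* (0.58) lost its call at 0.53 without HL60 early ch+ replicate 525, 0.58 without ML1 early ch+ replicate 538, 0.47 without ML1 early ch+ replicate 541, 0.53 without HL60 late replicate 397, 0.56 without HL60 late replicate 398, 0.59 without HL60 late replicate 399 and 0.51 without ML1 late replicate 583, and *Ezh1* (0.50) at 0.37 without ML1 early ch+ replicate 539. Of 12 activating factors, 1 was higher in late than in early ch+, beside 8.79% of all tested genes, *Rbbp5* (0.73), a call lost at 0.62 without HL60 early ch+ replicate 523, 0.47 without ML1 early ch+ replicate 541, 0.69 without HL60 late replicate 399, 0.70 without ML1 late replicate 582 and 0.71 without ML1 late replicate 583. In the other comparisons 0 of the 12 passed by limma, beside 21.5% of all tested genes in late against ctrl and 6.17%, 1.92% and 6.26% in the early comparisons. An unadjusted p under 0.05 was found for 1, 0, 2 and 2 of them, beside 27.6%, 16.8%, 11.9% and 15.4% of all tested genes. The 3 CDX factors, which switch on trunk HOX genes in the embryo, were not analysed here.

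Noncoding RNAs within the clusters were weak. Of 19 listed, 10 were measured and 4 reached the floor: *Hotairm1* (mean 3.54), *Hoxaas2* (4.22), *Hoxaas3* (3.33) and *Hoxb3os* (4.31). *Hotair*, from the 5′ part of *Hoxc*, averaged 1.82, and *Hottip*, beyond *Hoxa13*, −1.81. By limma 0 of the 4, and 0 of the 6 tested genes that flank the clusters, were deregulated in late against ctrl, early ch+ against ctrl, early ch- against ctrl, early ch+ against early ch- and late against early ch+, beside 21.5%, 6.17%, 1.92%, 6.26% and 19.7% of all tested genes. An unadjusted p under 0.05 was found for 0, 0, 0, 1 and 0 of the 4 and 0, 0, 0, 1 and 1 of the 6 in the same order. Of all tested genes, 27.6%, 16.8%, 11.9%, 15.4% and 25.9% had such a p, and with so few genes a count of 0 says little. Some of these RNAs overlap HOX exons on the opposite strand, for instance *Hoxb3os* those of *Hoxb2* and *Hoxb3*, so their levels are uncertain where strand was not kept.

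Other factors of limb position moved in both directions. Of 14 tested, 4 were higher and 3 lower in late than in ctrl, beside 21.5% of all tested genes in either direction. Higher were *Meox1* (1.35), *Prrx1* (0.90), a factor of limb mesenchyme, *Irx3* (0.75) and *Tbx15* (0.59). *Prrx1* kept its call without any 1 library. *Meox1* lost it at 1.05 without ctrl replicate 374, 1.06 without ctrl replicate 375 and 1.12 without ML1 late replicate 581, and *Irx3* at 0.79 without ctrl replicate 373, 0.80 without ctrl replicate 374, 0.66 without ctrl replicate 375 and 0.70 without ML1 late replicate 583. *Tbx15* came to 0.96 without ctrl replicate 373, 0.40 without ctrl replicate 374 and 0.41 without ctrl replicate 375, and the last 2 ended its call. Lower in late were *Alx4* (−0.92), *Irx5* (−0.67) and *Shox2* (−0.52), and rescaling moved them to −0.23, 0.027 and 0.17, with no call left. *Alx4* came to −1.39 without ctrl replicate 373, −0.71 without ctrl replicate 374, −0.66 without ctrl replicate 375, −0.92 without HL60 late replicate 397, −0.91 without ML1 late replicate 581 and −0.69 without ML1 late replicate 582, and all but the first ended its call. *Irx5* lost its call at −0.40 without ctrl replicate 374, −0.61 without ML1 late replicate 581 and −0.63 without ML1 late replicate 583, and *Shox2* at −0.37 without ctrl replicate 373, −0.52 without ctrl replicate 374 and −0.47 without ML1 late replicate 582.

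In early ch+, *Tbx15* (0.64) and *Prrx1* (0.36) were higher than in ctrl, 2 of 14 beside 6.17% of all tested genes in either direction. *Tbx15* came to 1.01 without ctrl replicate 373, 0.46 without ctrl replicate 374, 0.46 without ctrl replicate 375, 0.59 without HL60 early ch+ replicate 523 and 0.60 without ML1 early ch+ replicate 538, and all but the first ended its call. The call of *Prrx1* was lost at 0.38 without ctrl replicate 373, 0.30 without ctrl replicate 374, 0.41 without ctrl replicate 375, 0.36 without HL60 early ch- replicate 527, 0.36 without HL60 early ch- replicate 529, 0.36 without ML1 early ch- replicate 543, 0.36 without ML1 early ch- replicate 544, 0.36 without ML1 early ch- replicate 546, 0.38 without HL60 early ch+ replicate 523, 0.34 without HL60 early ch+ replicate 525, 0.32 without ML1 early ch+ replicate 538, 0.36 without ML1 early ch+ replicate 539, 0.36 without HL60 late replicate 397, 0.36 without HL60 late replicate 398, 0.36 without HL60 late replicate 399, 0.36 without ML1 late replicate 581, 0.36 without ML1 late replicate 582 and 0.36 without ML1 late replicate 583. From early ch+ to late, *Meox1* (1.23), *Irx3* (0.67) and *Prrx1* (0.54) were higher. Lower were *Tbx4* (−1.13), *Tbx5* (−0.89), *Irx5* (−0.62) and *Shox2* (−0.45), so that 7 of 14 were called beside 19.7% in either direction. *Tbx4* averaged 4.22 in early ch+, 3.45 in early ch-, 3.15 in ctrl and 3.09 in late. Its mean of 3.52 over all libraries passed the floor largely through early ch+, so the filter favours its call. *Tbx5* lost its call at −0.68 without ML1 early ch+ replicate 541 and −0.78 without ML1 late replicate 583, and *Shox2* at −0.38 without HL60 early ch+ replicate 525 and −0.40 without ML1 late replicate 582. After rescaling, *Tbx4* came to −0.51, *Tbx5* to −0.27, *Irx5* to −0.0031 and *Shox2* to 0.16, and none of the 4 was called. The hind limb genes *Pitx1* and *Tbx4* averaged 5.89 and 3.52 over all libraries, and the forelimb gene *Tbx5* averaged 4.40.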

How the data were processed

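RNA of Nes low mesenchymal cells was measured in 21 bulk libraries. The authors aligned reads with STAR 2.5.1b to mm10, counted with RSEM 1.2.29 and deposited log2 values made by the regularized logarithm of DESeq2 (1.10.1 in the sample labels, while the methods name a later version). A log10 scale, which the methods name, does not match the highest value of 22.44. Read counts and the depth of each library could not be recovered, and the shrinkage narrows the spread of weakly expressed genes (median SD 0.039 at means of −2 to 0, 0.59 at 4 to 6). A member of the HOX family and a cofactor are not reported here and enter no count or summary of HOX genes or cofactors, while the tests ran over the whole table. HOX members and all gene lists were chosen with earlier results of these data known. Genes with a mean of at least 3.32 (12976 of 26852) were fitted with limma 3.58.1 in R 4.3.3, with a trend of variance with level, in a model of 4 groups and in a model of 7 groups with the lines apart. Tests were two-sided, p-values were adjusted over all tested genes by Benjamini-Hochberg, and genes under 0.1 were called deregulated. At most 3 partner genes in each direction and list, by size of change, were named by rule, and further ones were chosen after their values were seen. The code was tested on simulated data. Figures and tables were made with Python 3.11.15, numpy 2.4.6, pandas 2.3.3 and matplotlib 3.10.9. Alternatives were other filters, thresholds, scalings, weights and subsets of libraries, and leaving out the ML1 late libraries was chosen after seeing the data.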

Additional observations from a re-analysis of the deposited data

Results flagged for a closer look

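In 3 groups of 6 libraries, 1 library stood far from the others, out of 63 groups of gene and stage that were looked at, and chance picks out about 1 in 20 groups. *Hoxa3* in early ch- stood at 7.98 in HL60 replicate 529, with the other libraries at 6.47 to 7.01. *Hoxa11* in early ch- stood at 5.49 in ML1 replicate 546, with the others at 4.07 to 4.58. *Hoxa11* in early ch+ stood at 5.95 in HL60 replicate 523, with the others at 5.35 to 5.55. Differences from ctrl also differed between stages, by the limma test of the difference itself. Between early ch+ and early ch- this was *Hoxa11* (1.02), and between late and early ch+ it was *Hoxc8* (0.91) and *Hoxa7* (0.58).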

How the results depend on the processing

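The count of 21 HOX genes at a mean of 3.32 or more stayed at 21 to 21 with each library left out. Numbers of HOX genes that passed depended on the processing, and where no reason is given the cause was not tested. With each library left out in turn they ran from 0 to 1 (late against ctrl), 0 to 2 (early ch+ against ctrl), 0 to 1 (early ch- against ctrl), 0 to 2 (early ch+ against early ch-), 0 to 3 (late against early ch+), 0 to 1 (HL60 late against ctrl), 0 to 2 (ML1 late against ctrl), 0 to 1 (HL60 early ch- against ctrl) and 1 to 1 (ML1 early ch+ against ctrl). They stayed at 0 to 0 in the other comparisons with ctrl, between the lines and for the interaction. The share of all tested genes that passed with each library left out is not given here. A filter at a mean of 5 gave 0 for early ch+ against early ch- because it removes *Hoxa11* (mean 4.97) before the test, so it does not bear on that call. No filter gave 0 for early ch+ against ctrl and 1 for late against early ch+. Rescaling to the mean library total gave 15 for late, 11 for HL60 late and 14 for ML1 late against ctrl, 14 for late against early ch+ and 2 for early ch+ against early ch-. This rescaling, by construction, lifts libraries with low sums, and the share of all tested genes that then passed is not given here. It also reversed *Shox2* (0.17) and *Irx5* (0.027) in late against ctrl, and *Shox2* (0.16) in late against early ch+. Quantile normalization gave 2 for early ch+ against early ch-. Without a mean-variance trend there were 2 for early ch+ against ctrl, *Hoxc8* and *Hoxc5*. Sample weights gave 0, and the cell line as a term 2, for early ch+ against early ch-. A threshold of 0.05 gave 0 for late against early ch+. HL60 libraries alone gave 0 for early ch+ against ctrl, early ch+ against early ch- and late against early ch+. ML1 libraries alone gave 0 for early ch+ against early ch- and late against early ch+. Leaving out the ML1 late libraries, chosen after seeing the data, gave 0 for late against early ch+. These subsets hold fewer libraries. With the longest transcript as length, the highest level per kb in *Hoxa* was 6.47. No paired analysis was possible because early ch+ and early ch- libraries share no replicate number, although the methods place both fractions in the same marrow. The depth of each library is unknown, so what it limits could not be stated.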
